A study of Homo sapiens with 12 samples.

Results

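The comparison described here is that of TIGK cells treated with L-arginine (Arg) for 48 h against untreated control cells of the same time point. TIGK cells are human keratinocytes of the gingiva, immortalised by transfected telomerase (hTERT), and all groups come from this single line. The comparison comprised 6 of the 12 libraries of the series, chosen by the label of treatment and time, and 14562 of the 58735 genes of the count table passed the filter on low counts and were tested. Both groups were kept at 48 mM glucose in a base medium that per the methods held no Arg; the treated cells received 500 µM Arg for 48 h, and the untreated control received none. Each group had 3 libraries, A, B, and C, made from cells of 6-well plates. The sources used here do not say that A, B, and C were separate cultures, so the p-values measure only the spread between these libraries, which may be technical. RNA of whole cultures was sequenced, and in such samples fewer cells of a type and less RNA per cell cannot be told apart.

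Arg is the precursor of nitric oxide, urea, polyamines, proline, and creatine, and cells take it up through cationic amino acid transporters. It is also one of the amino acids whose supply sets how fast ribosomes work and how many are made, and a shortage activates the transcription factor ATF4. Gingival keratinocytes divide in the basal layer of the oral epithelium, where they express keratins 5 and 14 and basement membrane integrins, and they switch to keratins such as keratin 13 as they leave it.

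The libraries held between 18227010 and 18856468 counts in the control and between 16542243 and 18640349 in the Arg group. Keratinocyte markers were abundant in every library, with summed levels of all 8 markers tested between 45585 and 50601 counts per 1e6 counts after TMM normalization (CPM). KRT5, keratin 5, had 30806, 28047, and 29478 CPM in controls A, B, and C and 30607, 30137, and 29332 CPM in Arg A, B, and C. Markers of other cells were low: the 3 tested fibroblast markers of 6 summed to between 72.9 and 104 CPM, the 2 tested endothelial markers of 4 to between 3.86 and 6.53 CPM, and PMEL and CD14, the only tested markers of melanocytes and leukocytes of 4 each, lay at or under 3.22 CPM. CD14 was lower with Arg without control B (log2 fold change −1.29, adjusted p = 0.0201, edgeR) but did not pass with it.

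Control B stood apart from the other controls. Over the genes with a mean of at least 10 CPM, the standard deviation of the log2 difference between controls A and C was 0.138, whereas control B differed from them with standard deviations of 0.276 and 0.288. Control B was closer to the Arg libraries, with 0.163 to Arg A, 0.184 to Arg B, and 0.211 to Arg C, which is near the values between pairs of Arg libraries (0.152 to 0.180). The 24 h libraries, which are independent of those at 48 h, give a separate description of its position. At 24 h, edgeR's test called 398 genes (2.79%) upregulated and 549 genes (3.84%) downregulated with Arg at an adjusted p under 0.05. Of these, 395 and 538 were tested at 48 h. Over the 395 upregulated genes, the median log2 level relative to the mean of the 48 h Arg libraries was −0.24 in control A and −0.22 in control C but −0.033 in control B. Over the 538 downregulated genes, it was 0.35 in control A, 0.36 in control C, and 0.048 in control B. In both sets of genes, control B therefore lay with the Arg libraries. Whether control B was labelled and prepared as stated was not tested; it was used as labelled, and every value with all libraries depends on its label.

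**Figure D1:**
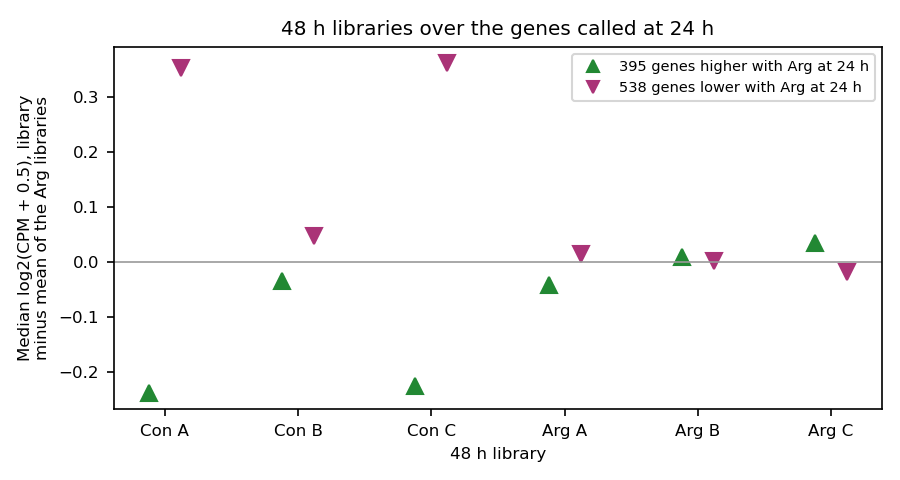
Median log2(CPM + 0.5) of each 48 h library minus the mean of the 3 Arg libraries (y axis), for the 6 libraries (x axis), over 395 genes higher with Arg at 24 h (upward triangles) and 538 genes lower with Arg at 24 h (downward triangles). Controls A and C lie apart from the Arg libraries in both sets, while control B lies at −0.033 and 0.048, beside them.

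With all 6 libraries, edgeR's quasi-likelihood test called 0 genes (0%) upregulated and 17 genes (0.117%) downregulated at a Benjamini-Hochberg adjusted p under 0.05. At an unadjusted p under 0.05, 865 genes (5.94%) were higher and 1090 (7.49%) were lower, and DESeq2 called 42 and 127 genes at its adjusted p. The Arg and control libraries did not overlap in 1218 genes that were higher (8.36%) and 1282 genes that were lower (8.8%). Without control B, 14854 genes passed the filter, and 1152 (7.76%) were called upregulated and 1213 (8.17%) downregulated, among them all 17 of the genes called with 6 libraries. The common biological coefficient of variation, a summary over all genes of the spread between libraries, was 0.107 with 6 libraries and 0.0671 without control B. Leaving out any of the other 5 libraries left it between 0.108 and 0.119. Among the genes called upregulated without control B and tested with it, control B was nearer to the Arg libraries than to controls A and C in 959 of 1151 (83.3%), and among those called downregulated in 920 of 1200 (76.7%). Below, "called" and "passed" refer to edgeR's test without a block unless DESeq2 is named. For each gene named below it is stated whether the call holds without control B. A call without control B rests on 2 control libraries, and that library was set aside with its values known. The counts of each list below stand beside the shares of all genes. These are 7.76% upregulated and 8.17% downregulated without control B, and 5.94% higher and 7.49% lower at an unadjusted p under 0.05. For DESeq2 with all libraries, they are 42 upregulated and 127 downregulated of 27248 genes with a count.

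The test with all libraries counts control B as a control and so favours genes in which control B lay with controls A and C. In all 17 genes called downregulated with all libraries, control B lay above the 3 Arg libraries, as controls A and C did. They belong to the ribosome (RPS15A, RPS29, RPS21, RPS27, RPL37A), the mitochondrion (NDUFC2, NDUFB8, MINOS1, HSPE1), lactate metabolism (LDHB), signalling and transcription (FOS, RHOB, CAMK2N1, CSNK2B, POLR2I), and the endoplasmic reticulum (SELENOT), and the last is a ribosomal pseudogene (RPL21P28). RPS15A, a protein of the small ribosomal subunit (ENSG00000134419, chromosome 16 of GRCh38, 18781295 to 18790383, minus strand), had 168, 156, and 162 CPM in controls A, B, and C and 91.5, 91.6, and 92.1 CPM in the Arg libraries. The 3 controls and the 3 Arg libraries each formed a narrow group without overlap, and RPS15A fell by 0.82 on the log2 scale (standard error 0.063, adjusted p = 0.000174, edgeR). Without control B it fell by 0.85 (adjusted p = 9.82e-10, edgeR). RPS29 had 233, 214, and 220 CPM in the controls and 131, 133, and 111 CPM with Arg, and it fell by 0.83 (standard error 0.078, adjusted p = 0.000507, edgeR; without control B by 0.86, adjusted p = 8.45e-09). RPL37A, a protein of the large subunit, had 945, 817, and 927 CPM in the controls and 654, 662, and 578 CPM with Arg. Control B was the lowest control here but lay above every Arg library, and RPL37A fell by 0.51 (standard error 0.073, adjusted p = 0.0206, edgeR; without control B by 0.57, adjusted p = 3.36e-07). RPS21 and RPS27 fell by 0.58 and 0.48 with all libraries and by 0.60 and 0.48 without control B, and both calls hold without it.

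Genes of this class share a run of pyrimidines at the start of their transcripts, the site through which growth signals set how well they are translated. The start regions of the called ribosomal genes that RefSeq's promoter table holds are shown from 20 bases before to 20 bases after the annotated start (GRCh38.p14, 5′ to 3′ on the gene's strand), with a run of 5 or more C or T letters that begins with C within 5 bases of the start in capitals.
RPS21 (chr20:62387083-62387122, plus strand): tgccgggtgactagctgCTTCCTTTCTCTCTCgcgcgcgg
RPS27 (chr1:153990742-153990781, plus strand): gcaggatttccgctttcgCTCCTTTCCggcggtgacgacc
RPL37A (chr2:216498824-216498863, plus strand): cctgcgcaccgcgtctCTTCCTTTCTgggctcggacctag
RPS29 (chr14:49598691-49598730, minus strand): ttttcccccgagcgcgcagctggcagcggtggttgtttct
Such a run was present in RPS21, RPS27, and RPL37A and, read on the gene's strand only, in 21.1% of the 34961 promoters of the table and 22% of those of the genes tested. In RPS29 no such run begins within 5 bases of the annotated start, although the window shown opens with C and T letters further upstream.

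Transcripts of ribosomal proteins were lower over both subunits, and control B lay mostly on the side of the other controls. Of 85 ribosomal protein genes tested of 86, 77 had a log2 fold change below 0, with a median of −0.19, where the median over all genes tested was 0.0018. At the adjusted threshold, 5 were downregulated and 0 upregulated, at an unadjusted p under 0.05 58 were lower (68.2%) and 1 was higher, and in 59 (69.4%) every Arg library lay below every control. The median log2 level relative to the mean of the Arg libraries was 0.24 in control A, 0.15 in control B, and 0.19 in control C, and between −0.068 and 0.058 in the Arg libraries, so all 3 controls lay above all 3 Arg libraries. Without control B, the median was −0.22, against 0.0063 over all genes, with 56 genes downregulated (65.9%) and 2 upregulated. Of these 56, control B was nearer to the other controls in 46 and nearer to the Arg libraries in 10. Over all genes called downregulated without control B, it was nearer to the Arg libraries in 76.7%. RPL41, a very short protein of the large subunit, had 637, 596, and 594 CPM in the controls and 513, 462, and 423 CPM with Arg, which is −0.39 on the log2 scale (standard error 0.073, adjusted p = 0.0784, edgeR). It did not pass with all libraries and did without control B (−0.40, adjusted p = 0.000152, edgeR), while DESeq2 called it with all libraries (adjusted p = 0.000180). RPL17 and RPS23 were the 2 called upregulated without control B. RPL17 had 14.0, 13.4, and 13.7 CPM in the controls and 19.7, 19.8, and 21.4 CPM with Arg. The difference was 0.57 on the log2 scale (standard error 0.11, adjusted p = 0.0905, edgeR), and RPL17 was called upregulated without control B (0.55, adjusted p = 0.00221, edgeR). RPS23 had between 340 and 395 CPM in the controls and between 396 and 424 CPM with Arg. Its log2 fold change was 0.14 with all libraries (adjusted p = 0.386, edgeR) and 0.19 without control B (adjusted p = 0.0252, edgeR).

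The canonical transcripts of the ribosomal genes were short, with a median of 869 bases against 3093 over the genes tested. Without control B, called genes differed in length, with medians of 2205 bases among the downregulated and 4865 among the upregulated. When a trend with transcript length was removed from each library, an alternative chosen after seeing the data, the medians without control B were −0.16 for the small and −0.13 for the large subunit, in place of −0.26 and −0.19. Of the 85 genes, 34 were then downregulated, 16 of the small and 18 of the large subunit.

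**Figure D2:**
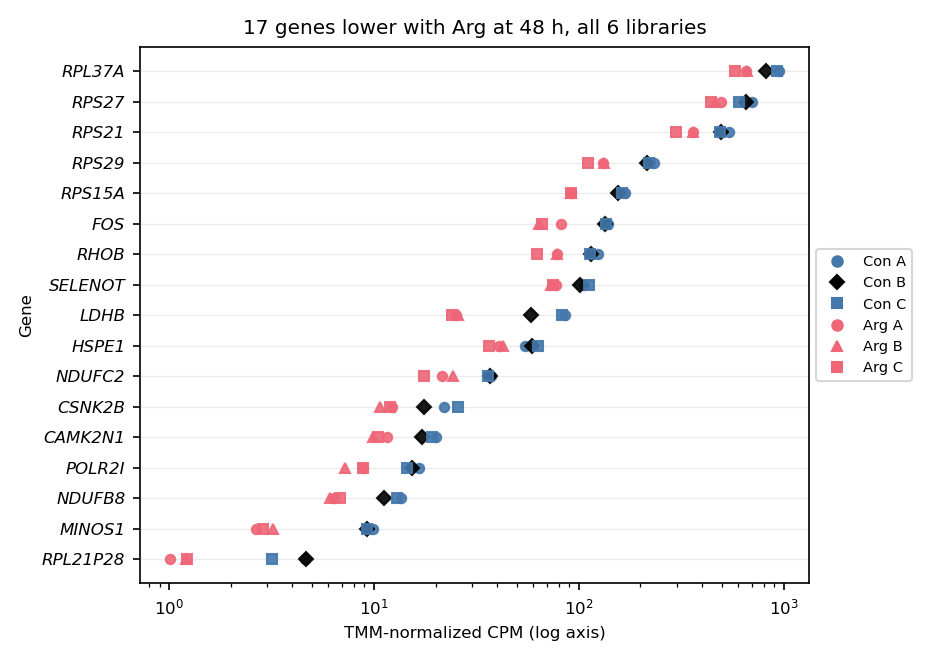
TMM-normalized CPM (x axis, log scale) of the 17 genes downregulated with Arg at 48 h at an adjusted p under 0.05 with all 6 libraries (y axis). Points are single libraries; blue marks controls A and C, black diamonds control B, and red the Arg libraries, and in each gene all 3 controls lie to the right of all 3 Arg libraries.

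Transcripts of the respiratory chain that are encoded in the nucleus were lower as well. NDUFC2, a subunit of complex I, had 37.4, 36.8, and 36.1 CPM in the controls and 21.4, 24.4, and 17.5 CPM with Arg, and it fell by 0.80 (standard error 0.12, adjusted p = 0.0206, edgeR; without control B by 0.80, adjusted p = 3.01e-05). NDUFB8, another complex I subunit, had 13.6, 11.3, and 13.0 CPM in the controls and 6.37, 6.13, and 6.85 CPM with Arg, and it fell by 0.97 (adjusted p = 0.0315, edgeR; without control B by 1.04, adjusted p = 6.36e-05). Both genes lay clearly below the controls in every Arg library, and both calls hold without control B. MINOS1, which shapes the inner membrane, had between 9.24 and 9.92 CPM in the controls and between 2.67 and 3.21 CPM with Arg and fell by 1.70 (adjusted p = 0.00186, edgeR; without control B by 1.72, adjusted p = 3.25e-06). MINOS1 was the only 1 of 23 tested genes of this complex and of mitochondrial import that passed with all libraries. Without control B, 3 of the 23 were downregulated (13.0%) and 1 upregulated (4.35%), beside 8.17% and 7.76% of all genes. HSPE1, the co-chaperone of the mitochondrial matrix, fell by 0.56 with and without control B. Of 37 complex I genes tested, 33 had a log2 fold change below 0 (median −0.13); 2 were downregulated with all libraries, and 14 were downregulated and 0 upregulated without control B (37.8% and 0%). Of 41 genes of complexes II to V, 35 were below 0 (median −0.14). With all libraries none passed by edgeR and 5 were downregulated by DESeq2, while 19 were lower and 1 higher at an unadjusted p under 0.05. Without control B, 18 were downregulated (43.9%) and 2 upregulated (4.88%). Of the proteins of the mitochondrial ribosome, 14 of 78 (17.95%) were downregulated without control B. Control B was nearer to the Arg libraries in 13 of these 14, beside 76.7% of all genes called downregulated without it. With all libraries edgeR called 0 and DESeq2 1. At an unadjusted p under 0.05, 3 were higher (3.85%) and 8 lower (10.3%), beside 5.94% and 7.49% of all genes. With the trend with transcript length removed and without control B, the downregulated genes numbered 7 in complex I (median −0.093 in place of −0.16), 11 in complexes II to V (−0.074 in place of −0.17), and 5 in the mitochondrial ribosome (−0.044 in place of −0.10). With all libraries, that correction left 1 call in complex I and a median of −0.070 in complexes II to V.

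LDHB, the lactate dehydrogenase subunit that favours the step from lactate to pyruvate (ENSG00000111716, chromosome 12, 21635342 to 21757857), showed the largest fold change among the called genes with more than 20 CPM. It had 85.7, 58.6, and 82.8 CPM in controls A, B, and C and 25.3, 25.7, and 23.9 CPM with Arg. Control B lay between the other controls and the Arg libraries, and LDHB fell by 1.60 (standard error 0.13, adjusted p = 0.000174, edgeR), or by 1.75 without control B (adjusted p = 4.05e-13, edgeR). LDHA, the subunit that favours the opposite step, had 2162, 1898, and 2170 CPM in the controls and 1849, 1810, and 1614 CPM with Arg (log2 fold change −0.24, adjusted p = 0.196, edgeR), and it was called only without control B (−0.30, adjusted p = 0.000505). SLC16A3, a lactate exporter, had 77.9 and 88.2 CPM in controls A and C but 43.0 CPM in control B, within the 42.2 to 52.6 CPM of the Arg libraries. Its groups overlapped, and the call of −0.83 holds only without control B (adjusted p = 4.11e-07, edgeR; with all libraries −0.58, adjusted p = 0.240). Of 22 glycolysis and lactate genes, 1 was downregulated with all libraries. Without control B, 8 were downregulated (36.4%) and 2 upregulated (9.09%), beside 8.17% and 7.76% of all genes.

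FOS, a subunit of the AP-1 transcription factor that growth factors induce within minutes (ENSG00000170345, chromosome 14, 75278774 to 75282230), had 138, 134, and 136 CPM in the controls and 81.6, 64.2, and 66.4 CPM with Arg. The controls were nearly identical, and FOS fell by 0.94 (standard error 0.088, adjusted p = 0.000507, edgeR; without control B by 0.95, adjusted p = 1.46e-08). RHOB, a small GTPase that is also induced early, had 124, 115, and 114 CPM in the controls and 78.0, 77.9, and 62.2 CPM with Arg, and it fell by 0.69 (adjusted p = 0.0116, edgeR; without control B by 0.71, adjusted p = 2.30e-06). JUND, a partner of FOS, had between 103 and 111 CPM in the controls and between 87.2 and 89.6 CPM with Arg, and edgeR called it only without control B (−0.30, adjusted p = 0.00215; with all libraries −0.27, adjusted p = 0.145, and 0.0333 by DESeq2). DUSP1, the phosphatase that shuts off MAP kinases, was split differently, with 294 and 295 CPM in controls A and C, 168 CPM in control B, and 141, 124, and 127 CPM with Arg. Its log2 fold change was −0.95 with all libraries (adjusted p = 0.0607, edgeR) and −1.17 without control B (adjusted p = 4.58e-12). EGR1 and JUN had their highest level in control B. EGR1 had 189, 301, and 189 CPM in the controls and between 143 and 173 CPM with Arg and was called downregulated only without control B (−0.22, adjusted p = 0.0329, edgeR; with it −0.48, adjusted p = 0.219), and JUN passed in neither comparison. Of 26 immediate early genes, 23 had a log2 fold change below 0 (median −0.26). With all libraries 1 was downregulated by edgeR and 4 by DESeq2. Without control B, 12 were downregulated (46.15%) and 1 upregulated (3.85%), beside 8.17% and 7.76% of all genes. Control B was nearer to the other controls in 5 of the 12 and to the Arg libraries in 7, beside 76.7% of all genes called downregulated.

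The promoters of FOS and DUSP1 are shown because FOS was called with all libraries and DUSP1 had the smallest p of the group without control B. The letters TGACG, the core of the element through which cyclic AMP and calcium signals act, are in capitals on either strand (GRCh38.p14, bases before the annotated start).
FOS (chr14:75278708-75278827, plus strand): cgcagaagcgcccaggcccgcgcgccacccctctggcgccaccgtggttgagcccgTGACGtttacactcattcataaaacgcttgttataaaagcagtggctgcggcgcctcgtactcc
DUSP1 (chr5:172771196-172771345, minus strand): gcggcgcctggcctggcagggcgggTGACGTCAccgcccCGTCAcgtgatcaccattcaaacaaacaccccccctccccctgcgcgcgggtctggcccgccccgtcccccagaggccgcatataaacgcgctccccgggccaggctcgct
TGACG stood once in the FOS window and 3 times in the DUSP1 window, where matches on the 2 strands overlap in TGACGTCA. The whole promoter entries, which begin 250 bases before the start and run past it, held 1 copy for FOS and 4 for DUSP1. Over such entries, TGACG was present in 24.5% of all promoters of the table and in 31.3% of those of the genes tested.

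The remaining called genes were CAMK2N1, an inhibitor of a calcium-dependent kinase (−0.82), CSNK2B, the regulatory subunit of casein kinase 2 (−0.90), POLR2I, a subunit of RNA polymerase II (−0.89), SELENOT, a selenoprotein of the endoplasmic reticulum (−0.50), and RPL21P28 (−1.85), and all 5 calls hold without control B. When single libraries were set aside, 5 genes were called in all 6 fits, namely RPS15A, LDHB, FOS, RPS29, and MINOS1, and 7 of the 17 were called only when control B was left out. Some values are uncertain because the strand setting of the counting is not given in the sources used here. MINOS1, NDUFB8, HSPE1, POLR2I, CSNK2B, and RPL21P28 overlap genes on the opposite strand with more counts, as SELENOT does with SERP1, and RPS29 overlaps LRR1. MINOS1 also overlaps NBL1 on its own strand. Ribosomal genes and LDHB have processed pseudogenes, with which their reads could have been split. SLC16A3 overlaps CSNK1D on the opposite strand, which has more counts. Of the genes named below, ARG2, CALML3, IFIT1, ZFAS1, and GAS5 have a partner on the opposite strand too, and ETV5 one on its own strand.

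EdgeR called 0 genes upregulated with all libraries, whereas DESeq2 called 42, and the values of the leading ones are given as measured. CYP1A1, an enzyme that oxidizes aromatic compounds and the classical target of the aryl hydrocarbon receptor, had the smallest p among the genes that were higher. It had 21.2, 20.8, and 20.1 CPM in the controls and 41.9, 40.5, and 27.0 CPM with Arg (chromosome 15, 74719542 to 74725610). All Arg libraries lay above all controls, with Arg C nearer to them, and control B lay with the other controls. CYP1A1 differed by 0.82 on the log2 scale (standard error 0.15, adjusted p = 0.0678, edgeR, and 0.000135 by DESeq2), and it was called upregulated without control B at the same 0.82 (adjusted p = 0.000206, edgeR). Its promoter entry reaches only 250 bases before the annotated start, and sequence further upstream was not examined. Within the entry stands 1 copy of GCGTG, the core of the element that the receptor binds. It begins at position −57 from the annotated start and is shown in capitals (GRCh38.p14, 5′ to 3′).
CYP1A1 (chr15:74725529-74725778, minus strand): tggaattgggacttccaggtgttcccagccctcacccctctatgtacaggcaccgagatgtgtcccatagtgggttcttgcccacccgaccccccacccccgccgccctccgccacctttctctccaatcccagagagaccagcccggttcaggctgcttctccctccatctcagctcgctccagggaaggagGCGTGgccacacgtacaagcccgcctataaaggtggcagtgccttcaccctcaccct
Over whole entries, which run past the start, GCGTG on either strand was present in 36.6% of all promoters of the table and in 48.1% of those of the genes tested. The other targets of the receptor divided: NQO1, a quinone reductase, had 329, 346, and 331 CPM in the controls and 388, 400, and 399 CPM with Arg (0.24, adjusted p = 0.145, edgeR, and 0.00990 by DESeq2) and was called without control B (0.26, adjusted p = 0.00150). CYP1B1 had 99.9, 155, and 95.5 CPM in the controls and 186, 181, and 142 CPM with Arg, so that control B overlapped the Arg libraries, and it was called without control B (0.80, adjusted p = 6.55e-07, edgeR; with all libraries 0.54, adjusted p = 0.201). TIPARP, which represses the receptor, was called downregulated without control B (−0.41, adjusted p = 0.00144, edgeR; with all libraries −0.29, adjusted p = 0.299). Of the 12 tested genes of this pathway, 0 passed with all libraries by edgeR and 2, CYP1A1 and NQO1, by DESeq2 (3 higher and 1 lower at an unadjusted p under 0.05). Without control B, 3 were upregulated (25%) and 1 downregulated (8.33%), beside 7.76% and 8.17% of all genes.

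SKP2, which directs the cell cycle inhibitor p27 to degradation, had 249, 317, and 258 CPM in the controls and 345, 339, and 323 CPM with Arg. Control B was the highest control and lay just under the lowest Arg library, and the log2 fold change was 0.29 with all libraries (standard error 0.085, adjusted p = 0.201, edgeR) and 0.41 without control B, where SKP2 was called upregulated (adjusted p = 2.57e-05). SRSF5, a splicing regulator, had 135, 151, and 136 CPM in the controls and 167, 157, and 154 CPM with Arg, with a log2 fold change of 0.18 (adjusted p = 0.296, edgeR), and it was called upregulated without control B (0.23, adjusted p = 0.0108). Among the 34 splicing regulators of the hnRNP and SR families, 0 passed with all libraries by edgeR and 1, HNRNPH1, by DESeq2, and 7 were higher and 0 lower at an unadjusted p under 0.05. Without control B, 4 were upregulated, among them HNRNPH1 (0.32, adjusted p = 0.000222, edgeR), and SRSF4 was downregulated (−0.22, adjusted p = 0.0399). The share upregulated without control B, 11.8%, was close to the 7.76% of all genes.

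Large proteins that tie the cytoskeleton to membranes and junctions were mostly higher with Arg, though with all libraries 0 passed by edgeR and 5 were upregulated by DESeq2. UTRN, utrophin, had 54.2, 69.8, and 55.4 CPM in the controls and 80.7, 85.8, and 97.6 CPM with Arg, a difference of 0.56 on the log2 scale (standard error 0.10, adjusted p = 0.0784, edgeR), and it was called without control B (0.68, adjusted p = 2.67e-06). FLNA, filamin A, had 1320, 1376, and 1322 CPM in the controls and 1494, 1629, and 1915 CPM with Arg (0.33, adjusted p = 0.148, edgeR), and it was called without control B (0.35, adjusted p = 0.00136). In both genes the groups did not overlap, and Arg C was the highest library. AHNAK and MYH9, a scaffold protein and non-muscle myosin, had log2 fold changes of 0.38 and 0.32. EdgeR called both only without control B, and DESeq2 called both with all libraries (adjusted p = 0.00630 and 0.0118). Of 24 such genes, 21 had a log2 fold change above 0 (median 0.23), 12 were higher and 0 lower at an unadjusted p under 0.05, and 14 were upregulated (58.3%) and 0 downregulated without control B, 7 of them with control B nearer to the other controls. Their canonical transcripts had a median length of 12470 bases. With the trend with transcript length removed and without control B, 10 were upregulated and 3 downregulated, with a median of 0.16. Among long RNAs kept in the nucleus, NEAT1 had 40.9, 54.0, and 49.7 CPM in the controls and 59.2, 61.4, and 69.8 CPM with Arg (0.40, adjusted p = 0.170, edgeR; called without control B, 0.49, adjusted p = 0.000665), and of the 9 tested 0 passed with all libraries by edgeR, 2 by DESeq2, and 4 without control B (44.4%, beside 7.76% of all genes), with control B nearer to the Arg libraries in all 4. MALAT1 was not among these 4 (0.36, adjusted p = 0.0774, edgeR). Over all genes called upregulated without control B, that library was nearer to the Arg libraries in 83.3%.

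Other genes high in the order of upregulation were NBPF26 (0.80, adjusted p = 0.0760, edgeR), SCARA3, a scavenger receptor (0.51, adjusted p = 0.0784), TNNT2, a troponin (1.05, adjusted p = 0.0905), TNS3, a focal adhesion protein (0.34, adjusted p = 0.133), and FUBP3 (0.31, adjusted p = 0.133). None passed with all libraries by edgeR, all 5 were called upregulated without control B, and DESeq2 called all 5 with all libraries (adjusted p between 0.000585 and 0.00990). AC067750.1 had 0.0536, 0.0531, and 0 CPM in the controls, which is at most a few counts, and between 0.546 and 0.589 CPM with Arg. It was called only without control B (adjusted p = 0.0136, edgeR). Only the Arg libraries were high enough for it to pass the filter on low counts, so no conclusion is drawn from that call. TNNT2 overlaps LAD1 on the same strand, and NBPF26 has near-identical copies, so their values are uncertain.

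A second class of genes was called by edgeR only without control B. This choice favours genes in which that library lay apart from controls A and C. In those named here, it lay near or past the Arg libraries. Among genes with a mean of at least 10 CPM, the downregulated ones with the smallest p without control B, LDHB aside, were GPX1, CDKN1C, MT2A, AQP3, MT1E, UCA1, and DUSP1, and none of these 7 passed with all libraries by edgeR, while DESeq2 called DUSP1 (adjusted p = 0.0288). GPX1, glutathione peroxidase, had 237 and 226 CPM in controls A and C, 73.2 CPM in control B, and 71.8, 63.8, and 72.0 CPM with Arg. Control B lay just above the highest Arg library, and the log2 fold change was −1.74 without control B (adjusted p = 2.57e-14, edgeR) and −1.37 with it (adjusted p = 0.133). CDKN1C, the p57 inhibitor of the cell cycle, had a log2 fold change of −1.85 without control B (adjusted p = 1.60e-13, edgeR) and −1.45 with it (adjusted p = 0.145), with overlap of the groups. AQP3, a glycerol channel of keratinocytes, had 194 and 175 CPM in controls A and C, 88.8 CPM in control B, and 75.7, 67.0, and 69.1 CPM with Arg. The log2 fold change of AQP3 was −1.11 with all libraries (adjusted p = 0.0784, edgeR) and −1.39 without control B (adjusted p = 1.75e-12). Of the 10 aquaporin and hyaluronan genes tested without control B, 4 were downregulated and 0 upregulated. Control B was nearer to the Arg libraries in all 4, beside 76.7% of all genes called downregulated without it. UCA1, a long noncoding RNA, had 30.4 and 32.0 CPM in controls A and C, 5.10 CPM in control B, and 5.35, 4.55, and 5.38 CPM with Arg (−2.61 without control B, adjusted p = 2.01e-12, edgeR; −2.14 with it, adjusted p = 0.134).

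Metallothioneins, small proteins that bind zinc and copper, showed the same division. MT2A had 1474 CPM in control A and 1469 CPM in control C but 439 CPM in control B, and 436, 544, and 551 CPM with Arg. MT1E had 328, 135, and 352 CPM in controls A, B, and C and 131, 152, and 132 CPM with Arg. Without control B, MT2A fell by 1.53 (adjusted p = 5.98e-13, edgeR) and MT1E by 1.30 (adjusted p = 2.01e-12), and with all libraries their log2 fold changes were −1.14 (adjusted p = 0.181) and −0.97 (adjusted p = 0.161). MT1X and MT1F, at under 13 CPM, passed in neither comparison, and 5 of the 9 metallothionein genes of the table were too low to be tested. The MT2A promoter is shown for its copies of the core of the metal response element, TGCACNC or TGCGCNC on either strand, in capitals (GRCh38.p14, bases before the annotated start).
MT2A (chr16:56608414-56608583, plus strand): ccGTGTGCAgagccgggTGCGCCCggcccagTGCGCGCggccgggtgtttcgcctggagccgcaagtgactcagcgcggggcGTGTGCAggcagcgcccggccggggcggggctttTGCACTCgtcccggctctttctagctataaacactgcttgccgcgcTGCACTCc
The window held 6 copies and the whole promoter entry, which begins 250 bases before the start and runs past it, held 8. Of such entries, 29.6% of all in the table and 37.1% of those of the genes tested held at least 1.

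Among the genes of this class that were higher, KRT13 had the smallest p. KRT13, the keratin of the upper layers of oral epithelium, had 1560 and 1461 CPM in controls A and C, 3542 CPM in control B, and 3091, 2867, and 2960 CPM with Arg. Control B exceeded every Arg library, and the log2 fold change was 0.98 without control B (adjusted p = 5.03e-12, edgeR) and 0.44 with it (adjusted p = 0.463). NOTCH3, a receptor that promotes differentiation, had 29.5 and 28.1 CPM in controls A and C, 95.2 CPM in control B, and 78.0, 67.6, and 61.2 CPM with Arg, and it was called only without control B (1.26, adjusted p = 2.81e-09, edgeR). The same held for GCLC, the rate-limiting enzyme of glutathione synthesis, with 109, 211, and 106 CPM in the controls and 216, 220, and 210 CPM with Arg (1.01 without control B, adjusted p = 5.38e-11, edgeR). FREM2, a basement membrane protein (1.70), WNT6, a secreted signal (1.63), TPM1, a tropomyosin (0.81), and AHNAK2 (0.96) were also called upregulated only without control B. The 5 largest gaps between control B and the other controls among genes called without it were those of UCA1, IGFBP3, TFPI2, ETV5, and CXCL14, and none of them passed with it. IGFBP3, a binding protein of insulin-like growth factors, had 96.8, 447, and 86.1 CPM in the controls and 348, 223, and 191 CPM with Arg (1.48 without control B, adjusted p = 3.17e-07, edgeR; 0.28 with it, adjusted p = 0.834). CXCL14, a chemokine of epithelia, had 76.6, 270, and 72.6 CPM in the controls and 214, 143, and 81.2 CPM with Arg, so that Arg C lay beside controls A and C (0.97 without control B, adjusted p = 0.00215, edgeR; 0.065 with it).

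**Figure D3:**
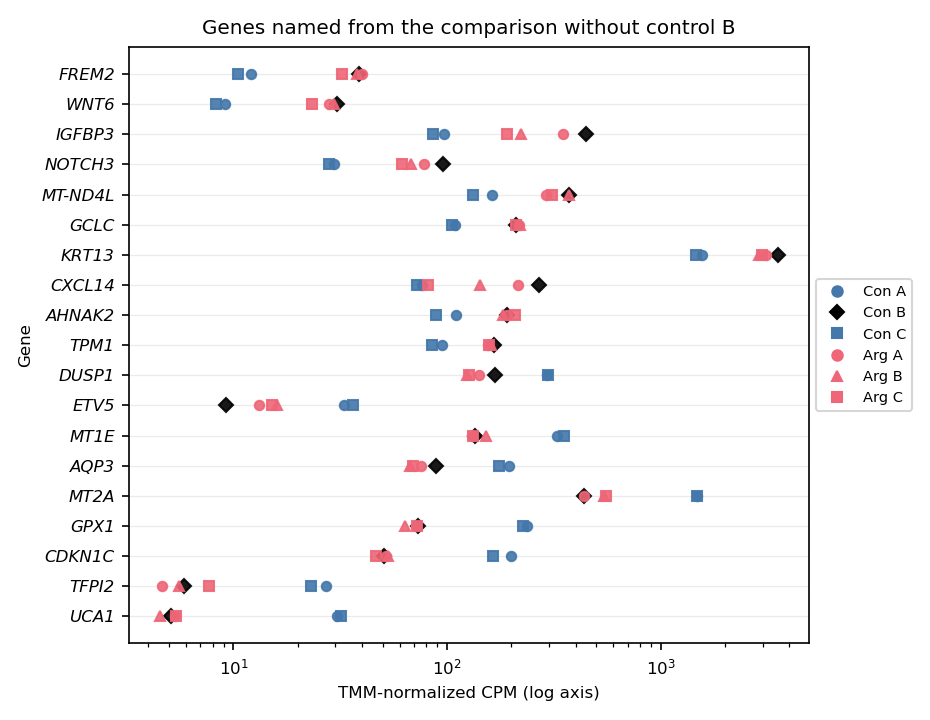
TMM-normalized CPM (x axis, log scale) of 19 genes named from the comparison without control B (y axis), ordered by that log2 fold change. Points are single libraries. The black diamonds of control B lie among or near the red Arg libraries, as in KRT13 (3542 CPM in control B) and MT2A (439 CPM in control B), and away from the blue controls A and C. UCA1, IGFBP3, TFPI2, ETV5, and CXCL14 were named for that distance. In the others, a call only without control B favours it.

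Beyond KRT13, the differentiation genes did not move as one. Of 31 tested of 36, 0 passed with all libraries by edgeR and 1, CALML3, by DESeq2 (1 higher and 5 lower at an unadjusted p under 0.05). Without control B, 7 were upregulated (22.6%) and 6 downregulated (19.35%), beside 7.76% and 8.17% of all genes. The upregulated ones included KRT10 (1.07), KRT1 (1.00), and DSG1 (1.45), proteins of the layers above the basal one, and in all 3 control B lay within the Arg libraries. KRT10, for example, had 404, 989, and 352 CPM in the controls and 1139, 707, and 526 CPM with Arg, a spread of more than 2-fold within the Arg group. CALML3 (−0.84) and SPRR3 (−1.70), also differentiation genes, were downregulated without control B, with log2 fold changes of −0.78 (adjusted p = 0.133, edgeR) and −1.47 (adjusted p = 0.145) with all libraries and no overlap of the groups in either comparison. SPRR3 was low, at or under 5.36 CPM in every library. Of 14 basal keratinocyte genes, 2 were upregulated (14.3%) and 3 downregulated (21.4%) without control B. ITGA6, the integrin subunit of hemidesmosomes, had 823, 760, and 809 CPM in the controls and 693, 724, and 692 CPM with Arg, and it was called only without control B (−0.22, adjusted p = 0.00531, edgeR).

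The 13 protein genes of the mitochondrial chromosome varied widely among the controls. Their summed level was 7818, 14014, and 6088 CPM in controls A, B, and C and 10244, 11898, and 10546 CPM with Arg, so that control B was the highest and controls A and C were the lowest of the 6 libraries. Mitochondrially encoded genes took 1.05% ± 0.440 of the counts in the control and 1.20% ± 0.0929 in the Arg group (SD, n = 3), and an exact two-sided permutation test gave p = 0.6, where 0.1 is the smallest p that 3 libraries against 3 allow. With all libraries, none of the 13 passed, by edgeR at either threshold or by DESeq2, and the median log2 fold change was 0.28. Without control B, 12 were upregulated (92.3%), with a median of 0.69. MT-CO1, a subunit of cytochrome c oxidase, had 2039, 3305, and 1624 CPM in the controls and 2697, 3047, and 2690 CPM with Arg (0.62 without control B, adjusted p = 2.38e-06, edgeR; 0.28 with it, adjusted p = 0.546). MT-ND4L, a complex I subunit that shares its ends with MT-ND4, had 162, 373, and 133 CPM in the controls and 292, 370, and 310 CPM with Arg (1.14 without control B, adjusted p = 3.27e-09, edgeR; 0.54 with it, adjusted p = 0.425). MT-ND3 was the exception, with 494, 747, and 322 CPM in the controls and 408, 487, and 434 CPM with Arg, and passed in neither comparison. At 24 h these genes lay the other way, with a median of −0.71 and 12 of 13 downregulated.

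Whether the effect of Arg at 48 h differed from that at 24 h was tested as a contrast of the 4 groups of the series. This difference passed an adjusted p under 0.05 in 2 of 15148 genes (0.0132%) with control B, and in 46 of 15508 genes (0.297%) without it. These 46 included 12 of the 13 protein genes of the mitochondrial chromosome, all with a higher log2 fold change at 48 h than at 24 h, such as MT-CYB (a difference of 1.57, adjusted p = 1.23e-07, edgeR) and MT-ND1 (1.71, adjusted p = 1.23e-07). In the other direction, GPX1, DDIT4, and MT1E were lower with Arg at 48 h by more than at 24 h, with differences of −0.82, −0.64, and −0.86 without control B. AQP3 had a log2 fold change of −2.13 at 24 h and −1.39 at 48 h without control B (difference 0.75, adjusted p = 0.0187, edgeR). Of the 395 genes upregulated at 24 h, 167 were upregulated at 48 h without control B, which is 42.3% of that list and 14.5% of the 48 h list, and of the 538 downregulated ones 298, which is 55.4% and 24.6%. With control B, 0 and 10 were shared. Among those genes, 1 and 14 were called in the opposite direction at 48 h without control B.

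Genes through which Arg is taken up and used were described by lists of transporters and enzymes. SLC7A2, a cationic amino acid transporter, had 43.1 and 42.9 CPM in controls A and C, 20.2 CPM in control B, and 19.1, 16.3, and 20.2 CPM with Arg, and it was called downregulated only without control B (−1.21, adjusted p = 1.50e-08, edgeR; −0.93 with it, adjusted p = 0.148). SLC7A1, the main transporter of this class in most cells, had 461, 608, and 440 CPM in the controls and 584, 584, and 577 CPM with Arg, and was upregulated without control B (0.37, adjusted p = 3.71e-05, edgeR). The 2 transporters thus had opposite directions, and control B lay beside or past the Arg libraries in both. Among the 31 tested enzymes of Arg, proline, and polyamine metabolism, 0 passed with all libraries by edgeR and 1, PYCR1, by DESeq2 (1 higher and 10 lower at an unadjusted p under 0.05). Without control B, 11 were downregulated (35.5%) and 4 upregulated (12.9%), beside 8.17% and 7.76% of all genes. ARG2, which cleaves Arg to ornithine and urea, had 12.5, 6.32, and 13.6 CPM in the controls and 6.58, 4.55, and 6.67 CPM with Arg (−1.13 without control B, adjusted p = 9.57e-05, edgeR; −0.86 with it, adjusted p = 0.211). SAT1, which acetylates polyamines for export, was lower without control B (−1.03, adjusted p = 1.39e-09, edgeR), while PYCR1, the last enzyme of proline synthesis, was higher (0.33, adjusted p = 0.00347; 0.30 with all libraries, adjusted p = 0.157). In PYCR1, control B lay with the other controls, at 78.9 CPM between 80.4 and 69.5 CPM, against 90.6 to 98.1 CPM with Arg. ASS1, which makes the precursor of Arg in cells, had 134, 160, and 117 CPM in the controls and 162, 161, and 147 CPM with Arg and was upregulated without control B (0.32, adjusted p = 0.00248, edgeR).

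The targets of ATF4 gave no common direction. Of 31 tested, 0 passed with all libraries by edgeR, while DESeq2 called 1 upregulated and 2 downregulated (2 higher and 6 lower at an unadjusted p under 0.05). Without control B, 3 were upregulated (9.68%) and 6 downregulated (19.35%), beside 7.76% and 8.17% of all genes. DDIT4, an inhibitor of mTORC1, had 839 and 792 CPM in controls A and C, 481 CPM in control B, and 476, 428, and 462 CPM with Arg (−0.84 without control B, adjusted p = 3.35e-10, edgeR; −0.63 with it, adjusted p = 0.148). SLC7A11, the cystine importer, had 112, 166, and 124 CPM in the controls and 177, 183, and 198 CPM with Arg (0.66 without control B, adjusted p = 3.41e-07, edgeR; 0.47 with it, adjusted p = 0.157).

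The cell cycle lists held genes of both directions at 48 h. The 54 G2/M phase genes had a median log2 fold change of 0.016, against 0.27 at 24 h, where 24 were upregulated. With all libraries 0 passed by edgeR or DESeq2 (1 higher and 3 lower at an unadjusted p under 0.05), and without control B 5 were upregulated, with CENPF leading (0.41, adjusted p = 0.00218, edgeR), and 6 were downregulated, with AURKA leading (−0.30, adjusted p = 0.000613), shares of 9.26% and 11.1% beside 7.76% and 8.17% of all genes. Of the 42 S phase genes, 4 were upregulated (9.52%) and 6 downregulated (14.3%) without control B. With it, 0 passed by edgeR or DESeq2 (1 higher and 3 lower at an unadjusted p under 0.05). Of the 8 tested CDK inhibitors, CDKN2B was upregulated and CDKN1C downregulated without control B, and neither passed with it. CDKN1A, p21, had 110, 138, and 103 CPM in the controls and 108, 108, and 109 CPM with Arg and passed in neither comparison. The 25 cholesterol synthesis genes, with a median of 0.23 at 24 h, had a median of 0.038 at 48 h. Without control B, 4 were upregulated (16%), among them HMGCS1 (0.34, adjusted p = 0.000431, edgeR), and 1 was downregulated (4%).

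Of 25 interferon-stimulated genes, 17 had a log2 fold change below 0. In 10 (40%) all 3 controls lay above all Arg libraries, beside 8.8% of all genes. With all libraries 0 passed by edgeR or DESeq2 (2 higher and 8 lower at an unadjusted p under 0.05). ISG15, a ubiquitin-like protein, had 123, 78.5, and 128 CPM in the controls and 69.6, 73.0, and 67.5 CPM with Arg (−0.65, adjusted p = 0.133, edgeR), and it was called without control B (−0.84, adjusted p = 3.78e-09). IFIT1 and IFI6 had log2 fold changes of −0.31 and −0.32 and were also called only without control B. Without that library 6 genes of the list were downregulated (24%) and 2, IFIT2 and STAT2, were upregulated (8%), beside 8.17% and 7.76% of all genes. Control B was nearer to the Arg libraries in 4 of the 6, beside 76.7% of all genes called downregulated without it. Host genes of small nucleolar RNAs included ZFAS1, with 49.5, 39.0, and 48.0 CPM in the controls and 33.5, 32.6, and 28.4 CPM with Arg (−0.53, adjusted p = 0.118, edgeR; −0.63 without control B, adjusted p = 3.31e-05). GAS5, SNHG5, and SNHG8 were likewise called by edgeR only without control B, and DESeq2 called these 3 and ZFAS1 with all libraries. Of 24 host genes tested without control B, 6 were downregulated (25%, beside 8.17% of all genes) and 0 upregulated. In all 6 of these, control B was nearer to the Arg libraries, again beside 76.7% of all genes called downregulated. With all libraries, 10 host genes lay above and 13 below 0, with a median of −0.016. Of 10 tested interleukins and chemokines of 22, CXCL14 and CCL5 were upregulated and IL18 was downregulated without control B, and 0 passed with it by edgeR or DESeq2 (0 higher and 1 lower at an unadjusted p under 0.05).

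**Figure D4:**
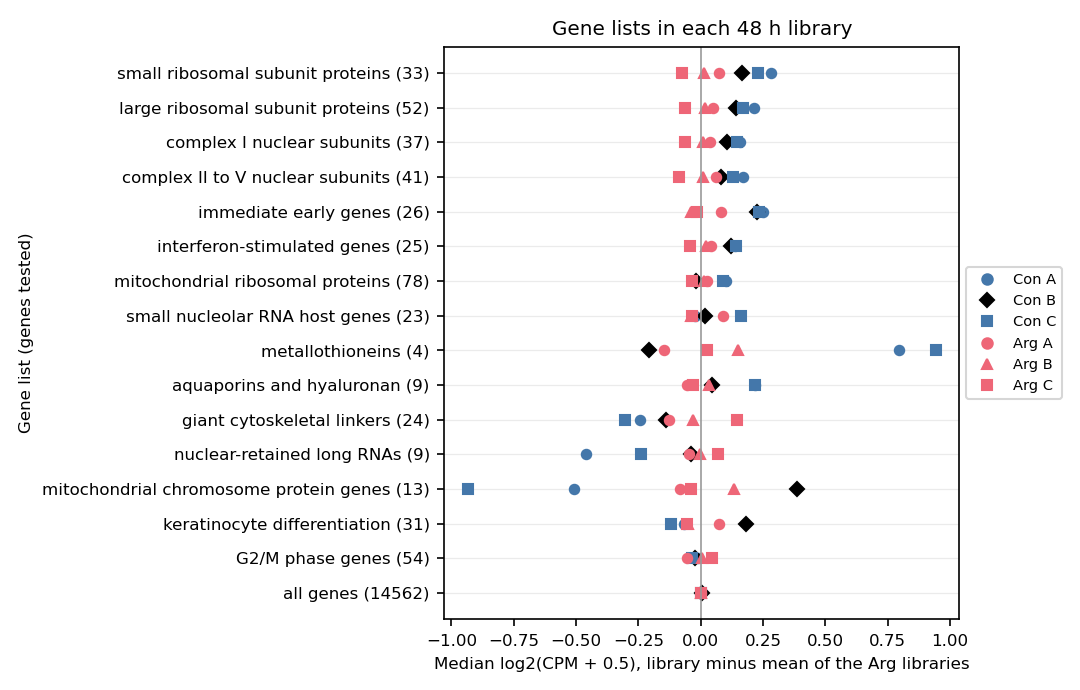
Median log2(CPM + 0.5) of each 48 h library minus the mean of the 3 Arg libraries (x axis) for 15 gene lists and all genes (y axis, number of genes tested in brackets). Black diamonds mark control B, which lies beside the blue controls A and C in the ribosomal lists and the immediate early genes and past the red Arg libraries, at 0.39, in the mitochondrially encoded genes.

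**Figure D5:**
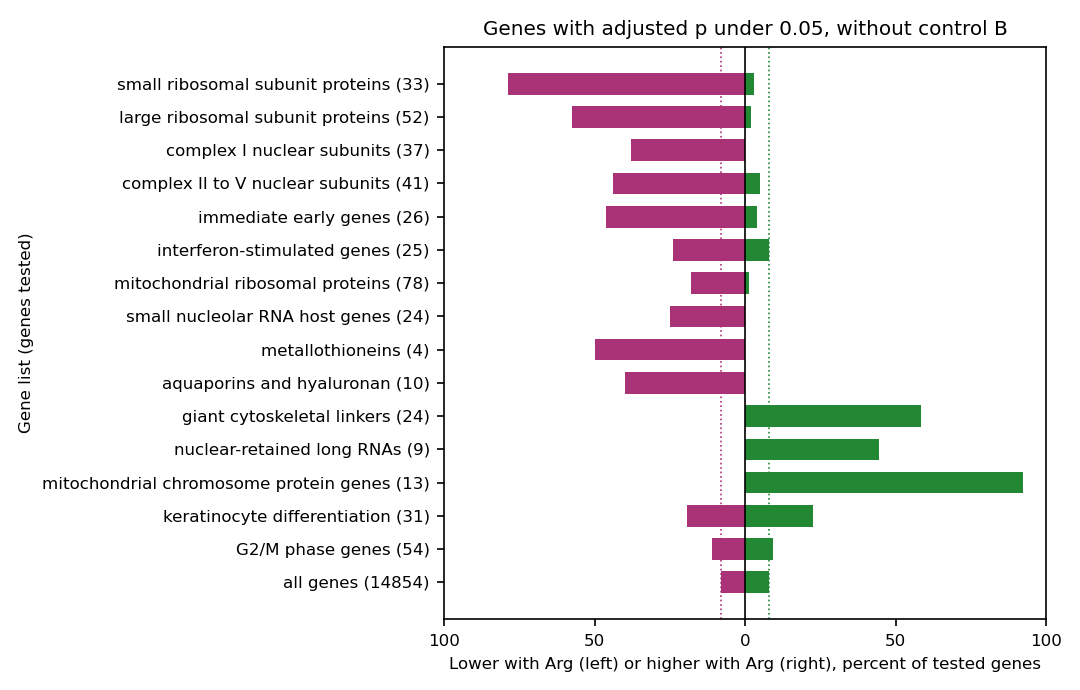
Percent of the tested genes of each list (y axis, number tested in brackets) called downregulated (left, purple) or upregulated (right, green) with Arg at an adjusted p under 0.05 without control B, with dotted lines at the 8.17% and 7.76% of all 14854 genes. The longest bars are those of the small ribosomal subunit (78.8% downregulated) and the mitochondrially encoded genes (92.3% upregulated).

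In the plot of gene lists by library, the lists fall along a range of positions of control B. By the list medians, control B lay on the side of controls A and C in the ribosomal lists, the respiratory complexes, the immediate early genes, and the interferon-stimulated genes. Single genes differed. Among those called downregulated without control B, it was nearer to the Arg libraries in 7 of 12 immediate early and 4 of 6 interferon-stimulated genes. Over all genes called downregulated, this share was 76.7%. In the metallothioneins, the mitochondrial ribosome, the nuclear long RNAs, the differentiation genes, and the mitochondrially encoded genes it lay with or past the Arg libraries. Mitochondrially encoded transcripts took 1.55% of the counts of control B, against 0.906% and 0.707% in controls A and C and 1.14% to 1.31% in the Arg libraries, and the part of this share in the position of control B was not tested.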

How the data were processed

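Raw counts of 6 libraries at 48 h (3 Arg, 3 control) and, for comparison, 6 at 24 h were used, as grouped by the labels, and 0 columns of counts were left out. Per the labels and the methods, the authors trimmed and filtered the reads (fastp), aligned them to GRCh38/hg38 (STAR), and assigned them to genes (featureCounts); the deposited values are whole-number counts without normalization. Versions, annotation release, and strand setting are not given in the sources used here.

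Arg and control libraries were compared with edgeR 4.0.16 in R 4.3.3 (filterByExpr, TMM, quasi-likelihood test, no block), with Benjamini-Hochberg adjustment over all genes tested and a threshold of 0.05. The standard error is the absolute log2 fold change over the square root of F. Levels are TMM-normalized CPM, and log2 levels use CPM + 0.5. Alternatives were DESeq2 1.42.0, other scalings and filters, all 12 libraries, the replicate block, exonic length, and each library left out. Corrections for the canonical transcript length of GENCODE v44, available for 14503 genes, and DESeq2 without control B were chosen after seeing the data. Each length correction removed a lowess trend per library (span 0.3, prior count 2). Scripts were tested on simulated data.

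The members, lists, and tests were chosen with earlier results of these data known. Genes were named if called with all libraries, if among the 10 with the smallest p that were higher, if among the 8 with the smallest p in each direction without control B (mean of at least 10 CPM), if CYP1A1, SKP2, or SRSF5, if among the 4 with the smallest p of a list, or if among the 5 with the largest gap of control B. KRT5, RPS23, EGR1, JUN, SRSF4, KRT1, KRT10, DSG1, MT-CYB, MT-ND3, SLC7A1, ASS1, CDKN2B, IFIT2, and STAT2 were named after their values were seen. Genes of chromosome Y were not reported. Some genes that the rule names are not reported here. Cell cycle lists came from Seurat 5.3.0 and promoter sequences from RefSeq (GRCh38.p14), where 98 of 142 named genes had an entry. Of the 85 ribosomal genes 67 had one, under 80%, so no share of them with a motif is given. Precision is limited by the number of libraries.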

Additional observations from a re-analysis of the deposited data

Results flagged for a closer look

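The effect of Arg differed between 48 h and 24 h by a test of the difference itself in 2 genes with all libraries. MT-RNR1, the small ribosomal RNA of the mitochondrion, had a log2 fold change of −0.997 at 24 h and −0.17 at 48 h, a difference of 0.829 (standard error 0.126, adjusted p = 0.0229, edgeR). FOS had −2.06 at 24 h and −0.94 at 48 h, a difference of 1.11 (standard error 0.173, adjusted p = 0.0229, edgeR). Without control B the differences were 0.851 for MT-RNR1 (adjusted p = 0.000938, edgeR) and 1.10 for FOS (adjusted p = 0.00224, edgeR), so both hold without it.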

How the results depend on the processing

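The counts of called genes, 0 upregulated and 17 downregulated, depended most on control B. With single libraries left out, the upregulated count ranged from 0 to 1152 and the downregulated one from 5 to 1213, where both maxima belong to the fit without control B. The downregulated count was 5 without control A, 10 without control C, and 6, 7, and 6 without Arg A, B, and C. At an unadjusted p under 0.05, the ranges were 473 to 2187 and 614 to 2172. DESeq2 called 42 and 127 genes, no filter on low counts 199 and 374, all 12 libraries 4 and 37, and a correction for exonic length 1 and 18. With the replicate block the counts were 43 and 141, and with it and the length correction 24 and 99. Libraries of the same letter showed little correlation of their deviations from the group means over all genes (−0.0378, 0.0164, and 0.0656 for A, B, and C). Taken over all genes, with control B apart from the other controls, these values cannot exclude that the letters pair the samples. DESeq2 size factors (0 and 17), library size alone (0 and 16), and at least 10 counts in every library (0 and 16) gave counts near the main ones. With canonical transcript length corrected, the counts were 0 and 12, and 12 of the 17 genes were kept. Without control B, the counts were 958 and 1140 with canonical transcript length corrected (unadjusted 1994 and 2064) and 783 and 900 with DESeq2 (unadjusted 1620 and 1677). The difference between 48 h and 24 h passed in 2 genes with the replicate block, 21 by DESeq2, and 46 without control B. The cause of these changes was not tested.

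The sign changed in 5 named genes, none called with all libraries. The log2 fold change of CDKN1A ranged from −0.20 to 0.022 with single libraries left out, and it was 0.067 and 0.019 without control B with the canonical length correction and with DESeq2. That of LAMA3 was −0.039 without control B with the canonical length correction. MT1F ranged from −0.23 to 0.064 with single libraries left out and was 0.010, 0.018, and 0.036 with the exonic length correction, the same with the replicate block, and the canonical length correction. IGFBP3 ranged from −0.098 to 1.48 and CXCL14 from −0.32 to 0.97 with single libraries left out.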

Other observations

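Among the 46 genes whose response to Arg differed between 48 h and 24 h without control B were genes of chromatin, cell division, and the cornified layer, named after their values were seen. HMGB2, a chromatin protein of dividing cells, had a log2 fold change of 0.61 at 24 h and 0.17 at 48 h (adjusted p of the difference 0.0422, edgeR). NDC80, which ties chromosomes to the spindle, had 0.54 and 0.039 (adjusted p of the difference 0.0405, edgeR). ASF1B, a histone chaperone, had 0.35 and −0.25 (adjusted p of the difference 0.0363, edgeR). SPRR3, a cornified envelope protein, had 0.47 at 24 h (adjusted p = 0.357, edgeR) and −1.70 at 48 h (adjusted p of the difference 0.0205, edgeR). Its level was low, with 4.13, 2.66, and 5.36 CPM in the 48 h controls and 1.23, 1.09, and 2.05 CPM with Arg. With all libraries its difference did not pass (adjusted p = 0.287, edgeR), and neither did those of HMGB2, NDC80, and ASF1B.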
